A study of Mus musculus with 16 samples.

Results

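The clustered histone genes are those whose symbols begin with Hist1h, Hist2h, Hist3h or Hist4h, which mark the 4 genomic clusters of replication-dependent histone genes in the mouse. They made up 70 of the 54532 genes in the deposited table, 67 of them protein-coding and 3 pseudogenes. Of these, 18 reached 1 FPKM in at least 4 of 16 libraries and were tested, and 52 did not. In all, 12319 genes were tested. FPKM here is reads per kilobase of gene, scaled between libraries by a size factor and not by total reads. The libraries were bulk RNA-seq of end-stage tumours of B16F10, a mouse melanoma line, grown under the skin of 8-week-old C57BL/6J mice of both sexes. Tumour cells were either wild-type (WT) or deficient in Pros1, the gene of protein S (BdP; another label calls them a Pros1 knockdown), and whether BdP was 1 clone is not given in the sources used here. Mice received PBS or 5 mg/kg of cisplatin, a platinum drug that crosslinks DNA, by intraperitoneal injection given daily for 3 days in each of 2 rounds, the first beginning on day 8 of tumour growth. The 4 groups were WT under PBS, WT under cisplatin, BdP under PBS and BdP under cisplatin, each with 4 libraries.

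Replication-dependent histone genes encode the core histones H2A, H2B, H3 and H4, which form the nucleosome, and the linker histones H1, which bind the DNA between nucleosomes. They lie in dense clusters without introns for the most part, are transcribed mainly in S phase, and yield messenger RNAs that end in a conserved stem-loop in place of a poly(A) tail. The stem-loop is bound by SLBP, and cleavage after it needs the U7 small nuclear ribonucleoprotein. Histone variants encoded elsewhere, such as H3f3a, H3f3b and H2afz, are made throughout the cell cycle and carry ordinary poly(A) tails. Some clustered genes, Hist1h1c, Hist1h2bc and Hist2h2be among them, are also known to give polyadenylated transcripts. The labels name the library kit, and whether RNA was selected by poly(A) is not given in the sources used here.

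The stem-loop is shown for the 6 histone genes that carry it among those given library by library below. Where a gene model stops relative to it sets whether reads beyond the stem-loop are counted. The motif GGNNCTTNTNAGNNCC, with N for any base, was searched on the sense strand of the GENCODE M21 transcripts (build GRCm38). It occurred in 201 of 55450 genes (0.362%) and in 46 of the 70 clustered histone genes, or 45 when only the longest coding transcript of each was read. Capitals mark the motif of 16 bases, and lower case the 7 bases on either side, written 5′ to 3′ on the gene's own strand.
Hist1h1c (chr13:23739505-23739534, plus strand): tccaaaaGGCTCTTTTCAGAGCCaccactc
Hist1h4i (chr13:22040959-22040988, minus strand): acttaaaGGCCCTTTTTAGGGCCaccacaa
Hist1h2bg (chr13:23571836-23571865, plus strand): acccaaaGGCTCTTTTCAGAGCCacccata
Hist1h2bj (chr13:22043631-22043660, plus strand): atccaaaGGCTCTTTTCAGAGCCacgcaca
Hist1h4h (chr13:23531451-23531480, plus strand): aaccaaaGGCCCTTTTCAGGGCCgcccaca
Hist1h2ae (chr13:23570661-23570690, minus strand): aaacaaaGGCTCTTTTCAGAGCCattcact
The form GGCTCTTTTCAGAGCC was the most frequent, in 25 of the 45, and the H4 genes shown here carried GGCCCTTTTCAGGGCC or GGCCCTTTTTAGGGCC. The transcripts of Hist1h2bc, Hist2h2be and the pseudogene Hist3h2bb-ps, also described below, did not hold the motif, which says only that these letters are not in those models.

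Gene models differed in how far they ran past the stem-loop. In 22 histone genes, 7 of them tested, the model ended within 100 bases of it, and these held 4.32% of all reads on clustered histone genes. In 23 genes, 8 of them tested, the model ran further, and these held 70.9% of the reads. Hist1h1c alone had 22318 of their 30953 reads. By gene, 34.8% of this class were tested, against 31.8% of those that ended within 100 bases. The 25 genes with no match, 3 of them tested, held the other 24.8%, with Hist1h2bc at 8194 of these 10802 reads. Hist1h1c had 840 bases of model after its stem-loop, Hist1h4i 330 and Hist1h2bj 23. The poly(A) signal AATAAA stood in the last 40 bases of 14 histone models, 5 of them tested (Hist1h1c, Hist1h2ae, Hist2h2be, Hist3h2a and Hist1h4a). Only the longest coding transcript of each histone gene was read for this. Over all genes the share was 35.6%, but there a gene counted if any of its transcripts held the signal. The counts are therefore not alike.

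Histone genes also share sequence with other genes, histone or not, which bears on reads that match several genes. In 29 of the 70 genes at least 50% of the windows of 100 bases occurred word for word in another gene of any kind. In 6 genes every window did. Some sharing was only with genes outside the clustered set. Hist2h2bb shared every window that way, and Hist3h2a shared 29.8% with Trim17, which overlaps it. The median share of such windows was 30.3% for tested genes, 54.5% for those not tested and 91.7% for the 11 genes without a read in any library. The 11 genes without a read were Hist1h2aa, Hist1h2aj, Hist1h2al, Hist1h2an, Hist1h2ba, Hist2h2aa1, Hist2h2aa2, Hist2h2ab, Hist2h2bb, Hist2h3b and Hist2h3c1, of which 8 had at least 50% of windows shared. How reads matching several genes were counted is not given in the sources used here, so levels of such genes are uncertain. Hist2h2be shared no window with another gene and Hist1h1c shared 5.07%, whereas Hist1h2ao, the tested gene with the most, shared 92.7%.

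Promoters were read for 62 of the genes from RefSeq windows of 300 bases (GRCm38.p6, 250 before the start and 50 after). CCAAT, searched on both strands, stood in 85.5% of them against 37.4% of all 32851 windows, TATAAA in 56.5% against 13.6%, and the octamer ATTTGCAT in 20.97% against 1.74%. Hist2h2be, the histone gene that changed, faces the H2A gene Hist2h2ac head to head. The 238 bases between the table's gene ends (chr3:96220881-96221118, minus strand, GRCm38.p6, from RefSeq) are shown because both genes start there. Upstream below means outside the table's gene ends. RefSeq itself starts Hist2h2be at 96221072, which leaves 191 bases between the RefSeq starts. The beginning of the printed stretch, with the octamer, therefore lies inside the RefSeq transcript of Hist2h2be. Capitals mark CCAAT on either strand (3 places), TATAAA (1) and the octamer (1).
Hist2h2ac and Hist2h2be, shared upstream stretch: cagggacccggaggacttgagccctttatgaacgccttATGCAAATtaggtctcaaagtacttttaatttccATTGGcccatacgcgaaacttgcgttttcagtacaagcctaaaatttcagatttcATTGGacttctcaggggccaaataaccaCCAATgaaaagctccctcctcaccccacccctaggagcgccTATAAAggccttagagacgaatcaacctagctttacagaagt
A motif match is a description of the letters and not of binding.

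Total reads per library, recovered from the FPKM steps, ran from 10051843 in WT PBS 1 to 27055771, with 270 to 4687 reads on clustered histone genes. Mitochondrial transcripts took 76.9% of reads in WT PBS 1, 21.7% in WT cisplatin 4 and 12.2% in WT cisplatin 3, and at most 5.06% in the other 13. In WT PBS 1 a single read on a gene of 500 bases is worth 1.02 FPKM, against 0.0627 to 0.17 FPKM elsewhere, so low histone values there rest on few reads. Pros1 was 4.79 to 11.5 FPKM in the WT libraries and 1.24 to 2.52 FPKM in the BdP libraries, without overlap. The 7 melanoma markers summed to 4648 to 8596 FPKM, so the labelled melanoma cells were present. None of the 42 tested marker genes (47 listed) of melanoma, leukocytes, blood, fibroblasts or endothelium was called in any of the 7 comparisons. Of all genes tested, 0% to 5.86% were called, depending on the comparison. No listed marker was at 0 in all libraries. For genotype averaged over treatments, unadjusted limma p fell below 0.05 for 5 of 5 B and plasma and 5 of 6 T cell markers. It did so for 3 of 3 leukocyte markers, against 25.8% of all genes. All markers in these lists were higher in BdP tumours, and other lists had at most 1 such p. For cisplatin averaged over genotypes, 5 of 7 erythroid and platelet markers had such a p, against 6.34% of all genes. Their median log2 difference was -5.02, with 5 negative and 2 positive. Leukocyte markers (Ptprc, Laptm5 and Coro1a, summed) spanned 4.4 to 168 FPKM in WT PBS, 9.52 to 96.0 in WT cisplatin, 37.3 to 374 in BdP PBS and 61.9 to 193 in BdP cisplatin. The part of these marker differences in the histone results was not tested.

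Most of the signal came from a handful of genes. Hist1h1c, which encodes a linker histone of the H1 family, had the highest mean level (38.2 FPKM over 16 libraries), followed by the H2B gene Hist1h2bc (19.6), the H4 gene Hist1h4i (8.6), the H2B gene Hist1h2bg (4.6) and the H2B gene Hist2h2be (2.38). Hist1h1c alone took 51.1% of the 43639 reads on clustered histone genes, the top 2 genes 69.9% and the top 5 81.9%. These 5 were also the only clustered histone genes at 1 FPKM or more in all 16 libraries. By class, 1 of 6 H1, 4 of 20 H2A, 6 of 19 H2B, 3 of 12 H3 and 4 of 13 H4 genes were tested. By cluster, 14 of 56 Hist1 genes (chromosome 13) were tested, 2 of 10 Hist2 (chromosome 3), 2 of 3 Hist3 (chromosome 11) and 0 of 1 Hist4 (chromosome 6).

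**Figure D1:**
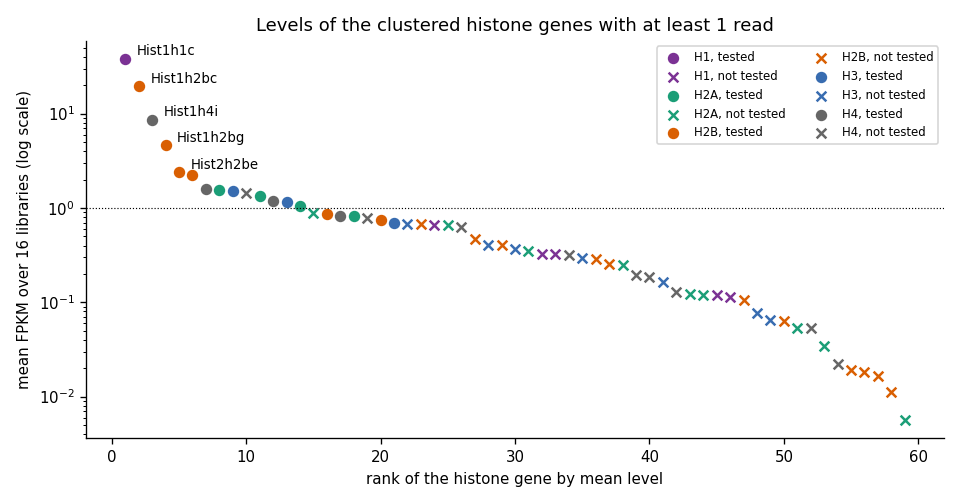
Mean FPKM over 16 libraries (log scale) of the 59 clustered histone genes with a read, ranked from highest to lowest and coloured by histone class; circles were tested, crosses were not, and the dotted line marks 1 FPKM. Hist1h1c at 38.2 and Hist1h2bc at 19.6 FPKM stand above a long tail of low genes.

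The other tested genes lay near the threshold. Hist1h4a and Hist1h4c reached 1 FPKM in 4 libraries, the fewest that passed, while Hist1h4f, Hist1h2ab, Hist1h4d, Hist3h2ba and Hist1h2af, named after their values were seen, reached it in 3. WT PBS 1 was the highest library for 12 of the 18 tested genes, and without it 16 genes would have passed, with Hist1h4a and Hist1h4c below the threshold. Against the variants, the clustered genes had low FPKM. The 11 histone variant genes encoded elsewhere summed to a median of 716 FPKM per library (599 to 940), and the 70 clustered genes to 100.05 FPKM (69.7 to 151). Whether RNA was selected by poly(A), a tail that most clustered transcripts lack, is not given. Its part in this gap was not tested.

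WT PBS 1 differed from the other 15 libraries in which histone genes it held. Hist1h1c was at 11.2 FPKM there (34 reads), 0.284 times the median of the other 15 and the lowest of the 16 values, and it took 12.6% of histone reads against 32.7% to 61.7% elsewhere. Hist1h4c (15 reads) was 15.03 times the median of the others. Hist1h3e, an H3 gene, was at 7.64 times (13 reads) and Hist1h2bj, an H2B gene, at 6.96 times (9 reads). Hist1h4c and Hist1h4a (4.72 times) passed the filter only with WT PBS 1, so the filter itself favoured high ratios for them. Both are among the 8 genes below whose model runs past the stem-loop. Among tested genes the median ratio was 2.51 for the 7 whose model ends near the stem-loop, 3.14 for the 8 whose model runs past it and 1.55 for the 3 without a match, with overlapping ranges (0 to 6.96, 0.284 to 15.03 and 0.771 to 3.2). The part of the mitochondrial share in this was not tested. Medians over the histone genes in comparisons that use WT PBS 1 are therefore also given without it.

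**Figure D2:**
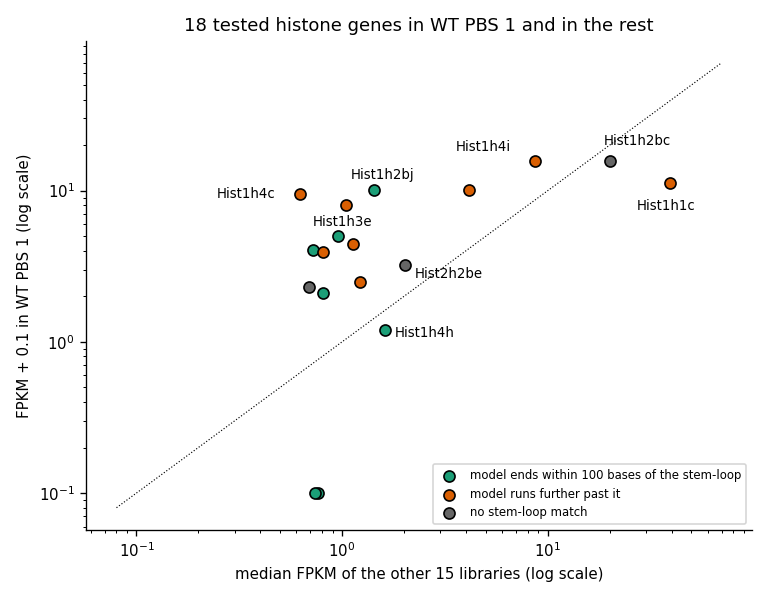
FPKM + 0.1 in WT PBS 1 against the median FPKM of the other 15 libraries for the 18 tested histone genes (both axes log scale), coloured by where the gene model ends relative to the stem-loop; the dotted line marks equal values. Hist1h1c lies below the line, at 11.2 FPKM, and Hist1h4c far above it, at 15.03 times the median of the others. Hist1h4c passed the filter only with WT PBS 1.

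The comparison of BdP with WT tumours under cisplatin asks what low Pros1 changes in treated tumours. A single clustered histone gene, Hist2h2be, changed: 1 of 18 tested was lower in BdP tumours at an adjusted p below 0.05 and 0 were higher, against 1.07% of all genes called (132 of 12319, 89 of them lower). In bulk tumours, fewer cells of a type and less RNA per cell cannot be told apart. Of the 18 genes, 9 had a negative and 9 a positive difference, and their median log2 difference was 0.065, against 0.0068 over all genes tested. All log2 differences are on the log2(FPKM + 1) scale, with moderated standard errors and Benjamini-Hochberg adjusted p from limma.

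Hist2h2be (ENSMUSG00000068854, chr3:96221119-96223738, plus strand, GRCm38) encodes an H2B histone from a model of a single exon that runs to 2620 bases. Under cisplatin it was at 3.81, 4.5, 2.5 and 3.48 FPKM in WT tumours and at 1.36, 1.49, 1.57 and 1.46 FPKM in BdP tumours. Every WT value lay above every BdP value. The means were 3.57 ± 0.83 (SD, n = 4) and 1.47 ± 0.084 FPKM (SD, n = 4), and the log2 difference was -0.87 ± 0.18 (limma adjusted p = 0.0282). These values rest on 107 to 289 reads per WT library and 84 to 114 per BdP library. The call was lost without filter on low values (adjusted p = 0.0599), after rescaling without mitochondrial and haemoglobin genes (0.241), with the replicate block (0.0537), without the 3 libraries richest in mitochondrial reads (0.0578), and in 7 of 16 fits that each left out 1 library (any of the 4 BdP cisplatin libraries, or WT cisplatin 1, 2 or 4), where adjusted p reached 0.107. On recovered reads with limma-voom the difference was -1.28 (adjusted p = 0.0273).

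Under PBS the same gene was at 3.13, 2.49, 3.69 and 2.02 FPKM in WT tumours and 1.82, 2.29, 1.01 and 1.43 in BdP tumours. The highest BdP value exceeded the lowest WT value, so the groups overlapped. The log2 difference was -0.54 ± 0.18 (limma adjusted p = 0.142), which did not pass. Averaged over both treatments, Hist2h2be fell by 0.71 ± 0.12 on the log2 scale (limma adjusted p = 0.00486), the only histone gene called of 18, against 5.86% of all genes called (722 of 12319). That call held in each of 16 fits without 1 library (adjusted p from 0.00344 to 0.0141) and was lost after rescaling without mitochondrial and haemoglobin genes (-0.75, adjusted p = 0.111). With the other histone genes of the averaged comparison, 12 of 18 differences were negative, with a median of -0.16 against 0.0062 over all genes tested, and without WT PBS 1 the median was 0.0030.

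Genes around Hist2h2be were also lower in BdP tumours. Averaged over both treatments, 9 of the 26 other genes tested within 500 kb were called lower (34.6%), 0 were called higher and 21 of 26 were negative, with a median log2 difference of -0.31. Among them, Anp32e, a chaperone that removes H2A.Z from chromatin, fell by 0.44 ± 0.065 (limma adjusted p = 0.00145), and Lix1l by 0.60 ± 0.071 (adjusted p = 0.000284). Over the whole of chromosome 3, 94 of 596 tested genes were called lower (15.8%) against 3.09% of all genes. Its median was -0.17, the lowest of 20 chromosomes. Other chromosomes were shifted too: chromosome 17 had 7.86% called lower and a median of -0.13, and chromosome 18 had the highest median, 0.22. Chromosome 3 also had the lowest median under cisplatin (-0.19), with 18 of 596 called lower (3.02%) against 0.722% of all genes. Under PBS it again had the lowest (-0.13), with 17 of 596 called lower (2.85%) against 0.576%. The part of this chromosome-wide difference in the Hist2h2be result was not tested. Hist2h2ac, the H2A gene at the other end of the stretch printed above, was named after its values were seen. It ran from 0.346 to 2.04 FPKM in WT and 0.723 to 1.67 in BdP tumours under cisplatin. Its log2 difference was 0.20 ± 0.35 (limma adjusted p = 0.853) on 5 to 22 reads per library.

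**Figure D3:**
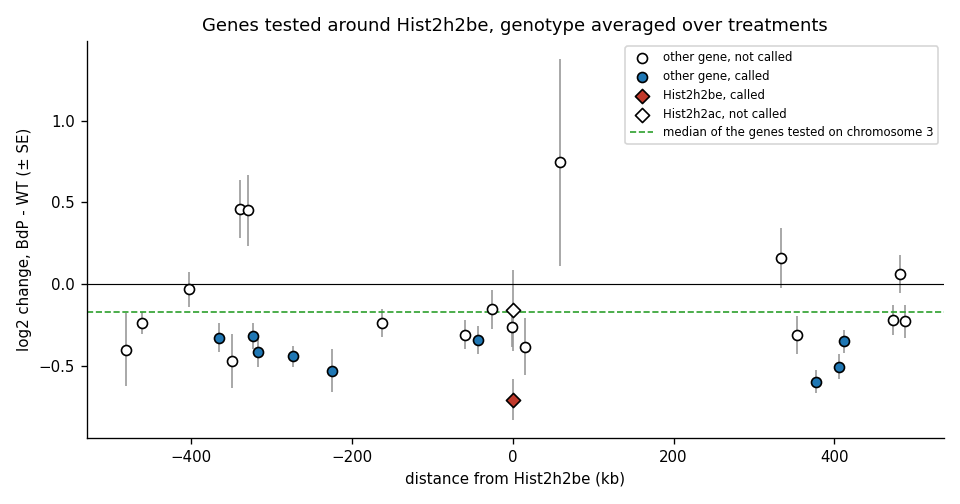
Log2 difference between BdP and WT tumours, averaged over both treatments, with its SE, for each gene tested within 500 kb of Hist2h2be, against its distance in kb; filled points were called, diamonds are histone genes, and the dashed line is the chromosome 3 median of -0.17. Hist2h2be, at -0.71, is the lowest of the genes drawn, and 9 other genes are called lower.

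Hist1h1c and Hist1h2bc, the most abundant histone genes, were also lower in every BdP than in every WT tumour under cisplatin, without passing the test. Hist1h1c was at 66.8, 39.9, 53.4 and 48.3 FPKM in WT and 26.8, 33.5, 20.3 and 28.7 FPKM in BdP tumours (log2 difference -0.90 ± 0.35, limma adjusted p = 0.272). It passed when only these groups were fitted (adjusted p = 0.0484) or when WT PBS 1 was left out (0.047), and not with limma-voom (0.0876). Hist1h2bc was at 25.5, 24.3, 21.9 and 25.6 FPKM in WT and 17.97, 15.5, 20.1 and 19.04 FPKM in BdP tumours (-0.41 ± 0.17, limma adjusted p = 0.307). Together with Hist2h2be, 3 of 18 histone genes had groups that did not overlap, all lower in BdP, against 13% of all genes tested. The summed level of all 70 genes ran from 102 to 122 FPKM in WT and 72.7 to 91.2 FPKM in BdP tumours under cisplatin. Without Hist1h1c the sums overlapped, at 55.3 to 68.3 and 45.9 to 66.0 FPKM.

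**Figure D4:**
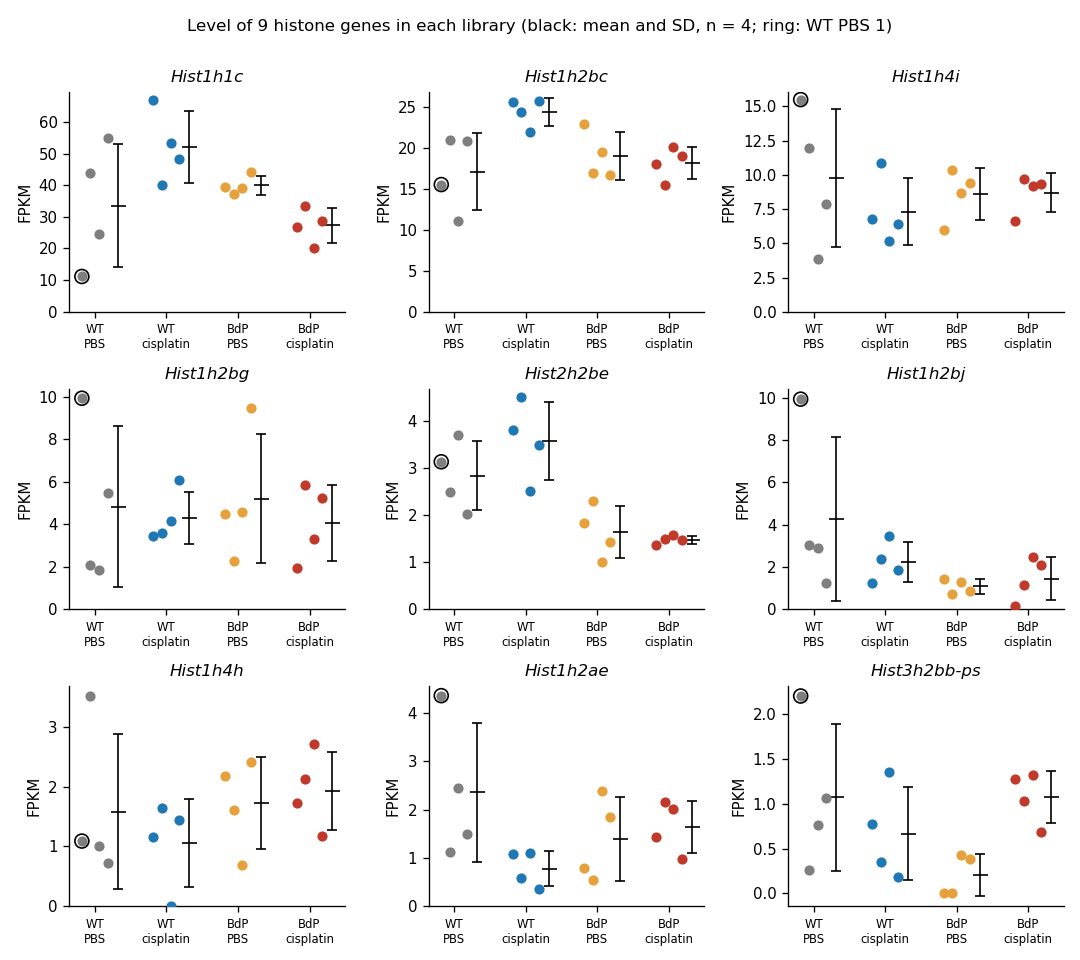
FPKM of 9 clustered histone genes in each of 16 libraries by group; coloured points are libraries, black marks the mean and SD of each group (n = 4), and the ring marks WT PBS 1. Hist2h2be, Hist1h1c and Hist1h2bc show BdP cisplatin points below all WT cisplatin points, and WT PBS 1 is the highest point for Hist1h4i, Hist1h2bg, Hist1h2bj, Hist1h2ae and Hist3h2bb-ps.

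Under PBS, the comparison of BdP with WT tumours called 0 of the 18 histone genes in limma and 0 with limma-voom, against 0.99% of all genes called (122 of 12319). Unadjusted p was below 0.05 for 4 of the 18 histone genes, against 19.3% of all genes, and 0 had groups that did not overlap, against 7.68% of all genes. The 18 differences had a median of -0.49 (12 negative), which became -0.097 over 16 genes without WT PBS 1. After Hist2h2be, the smallest p belonged to Hist1h2bj. It was at 9.95, 3.03, 2.87 and 1.23 FPKM in WT and 1.43, 0.729, 1.3 and 0.839 FPKM in BdP tumours under PBS. Of the 4 BdP values, 2 lay above the lowest WT value, and the log2 difference was -1.11 ± 0.42 (limma adjusted p = 0.183), or -0.67 without WT PBS 1 (adjusted p = 0.396).

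In tumours that make Pros1 (WT), the contrast of cisplatin with PBS called 0 of 18 histone genes in limma and 0 with limma-voom, against 0.00812% of all genes (1 of 12319). Unadjusted p was below 0.05 for 4 of the 18 histone genes, against 7.74% of all genes. Groups did not overlap for 2 of 18, Hist1h2bc higher and Hist1h2ae lower under cisplatin, against 3.24% of all genes. The median of the 18 log2 differences was -0.24 (7 positive) and 0.017 over 16 genes without WT PBS 1.

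Hist1h2bc was at 15.5, 20.9, 11.1 and 20.8 FPKM under PBS in WT tumours, below all of the cisplatin values above (log2 difference 0.53 ± 0.17, limma adjusted p = 0.553). Hist1h2ae, an H2A gene, was at 4.36, 1.13, 2.44 and 1.51 FPKM under PBS and 1.07, 0.58, 1.1 and 0.363 under cisplatin (-0.85 ± 0.30, limma adjusted p = 0.596; -0.59 without WT PBS 1). The nearest of these values, 1.13 and 1.1 FPKM, were almost equal and rested on 13 and 16 reads. Hist1h1c was at 11.2, 43.7, 24.6 and 54.8 FPKM under PBS, a range that overlapped the cisplatin values. Its log2 difference of 0.81 ± 0.35 (limma adjusted p = 0.622) became 0.39 without WT PBS 1 (adjusted p = 0.977).

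In BdP tumours, cisplatin against PBS called 0 of 18 histone genes in limma and 0 with limma-voom, against 0% of all genes (0 of 12319, with 542 genes and 1 histone gene at an unadjusted p below 0.05). Groups did not overlap for 2 of 18, against 4.42% of all genes. Hist1h1c was at 39.3, 37.2, 39.2 and 44.2 FPKM under PBS, above all 4 of the cisplatin values given above, whose highest was 33.5 (-0.55 ± 0.35, limma adjusted p = 1). The pseudogene Hist3h2bb-ps was at 0, 0, 0.43 and 0.38 FPKM in the PBS group, and the cisplatin group stood at 1.28, 1.03, 1.32 and 0.687 FPKM (0.80 ± 0.27, limma adjusted p = 1), on 0 to 19 reads per library. The median of the 18 differences was 0.13 (13 positive) against -0.0028 over all genes tested.

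The interaction asks whether the cisplatin difference itself differed between genotypes. It called 0 of 18 histone genes in limma and 0 with limma-voom, against 0% of all genes (0 of 12319, with 691 genes and 5 histone genes at an unadjusted p below 0.05). The median interaction of the 18 genes was 0.37, and 0.12 over 16 genes without WT PBS 1. Hist1h1c was higher under cisplatin in WT and lower in BdP tumours in its fitted means, an interaction of -1.36 ± 0.49 (limma adjusted p = 0.835) that became -0.94 without WT PBS 1. For the average of cisplatin over both genotypes, limma called 0 of 18 histone genes and limma-voom 0, against 0% of all genes (0 of 12319, with 781 genes and 0 histone genes at an unadjusted p below 0.05), and the median of the 18 was -0.038, or 0.057 over 16 genes without WT PBS 1. The comparisons within a genotype and within a treatment share libraries, so their values are not independent.

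**Figure D5:**
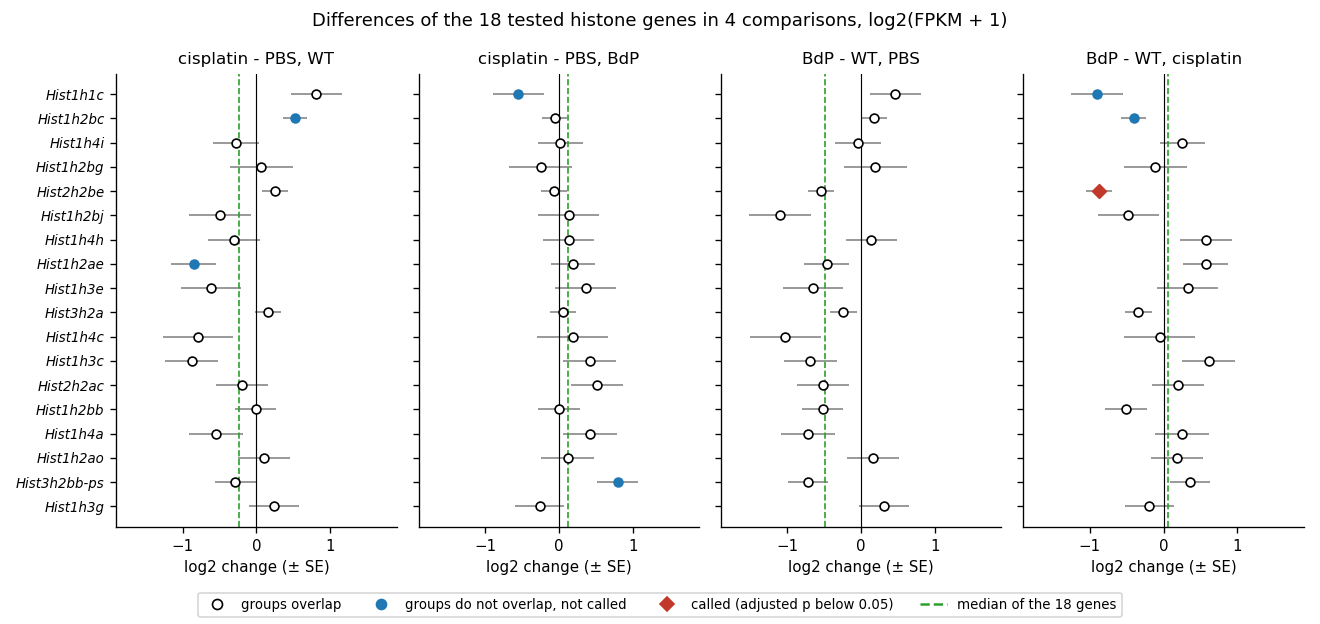
Log2 difference (± SE, on log2(FPKM + 1)) of the 18 tested histone genes in 4 comparisons, ordered by mean level; the red diamond is called, blue points have groups that do not overlap, and the dashed line is the median of the 18 genes. In these 4 comparisons only Hist2h2be in BdP against WT under cisplatin, at -0.87, is called.

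The remaining histone genes named by level did not separate the groups, save Hist1h2ae with cisplatin against PBS in WT tumours, given above. Hist1h4i, an H4 gene, was at 15.5, 11.9, 3.82 and 7.86 FPKM in WT PBS, 6.74, 10.8, 5.18 and 6.44 in WT cisplatin, 5.96, 10.4, 8.7 and 9.42 in BdP PBS and 6.59, 9.73, 9.16 and 9.3 in BdP cisplatin. All 4 groups overlapped, and the 4 comparisons gave log2 differences from -0.28 to 0.25. Hist1h2bg, an H2B gene, was at 9.94, 2.07, 1.84 and 5.45 FPKM in WT PBS, 3.44, 3.57, 4.14 and 6.06 in WT cisplatin, 4.5, 2.25, 4.6 and 9.48 in BdP PBS and 1.93, 5.83, 3.29 and 5.25 in BdP cisplatin. Its groups overlapped as well, with standard errors of 0.43 that exceed each difference between them. Hist1h4h, an H4 gene, was at 1.09, 3.51, 0.999 and 0.725 FPKM in WT PBS, 1.15, 1.65, 0 and 1.45 in WT cisplatin, 2.18, 1.62, 0.681 and 2.4 in BdP PBS and 1.73, 2.12, 2.71 and 1.17 in BdP cisplatin. The value of 0 in WT cisplatin 3 is a count of 0 reads, and the largest of its 4 differences was 0.57 ± 0.35 (BdP against WT under cisplatin, limma adjusted p = 0.485). Hist1h2bj was at 1.25, 2.38, 3.44 and 1.84 FPKM in WT cisplatin and 0.135, 1.12, 2.45 and 2.07 in BdP cisplatin, and Hist1h2ae at 0.799, 0.539, 2.39 and 1.86 in BdP PBS and 1.42, 2.16, 2.01 and 0.973 in BdP cisplatin. Of the 9 tested genes not given by library, Hist3h2a, an H2A gene, had the most reads (952 over 16 libraries), at 0.802 to 2.39 FPKM, and it overlaps Trim17 on the same strand.

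Genes that work with the clustered histones were read from lists. Among 10 tested variant histone genes of 11 listed, 3 were called lower in BdP tumours averaged over both treatments and 0 higher, against 3.09% of all genes called lower and 5.86% called in either direction, and 9 of 10 differences were negative (median -0.26). H1fx, a linker histone variant on chromosome 6, fell by 1.88 ± 0.18 on the log2 scale (limma adjusted p = 3.37e-05) in that average. It was at 1.74 to 4.63 FPKM in WT PBS and 0 to 1.32 in BdP PBS, a log2 difference of -1.31, and at 4.68 to 5.67 in WT cisplatin and at most 0.178 in BdP cisplatin, a log2 difference of -2.45. H2afz, which encodes H2A.Z and lies on chromosome 3, fell by 0.48 ± 0.096 (limma adjusted p = 0.0103), and H1f0, a linker histone of resting cells on chromosome 15, fell by 0.48 ± 0.11 (limma adjusted p = 0.0233). With the genotype compared inside a treatment, H1fx and H2afz were called lower under PBS, and H1fx under cisplatin. Of 18 tested histone chaperone genes, 2 were called lower (Anp32e and Nap1l1) and 0 higher in the average over treatments, against the same 3.09%.

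Of the genes that make and process histone messenger RNA, 14 of 15 listed were tested. Averaged over both treatments, 1 was called between genotypes, against 5.86% of all genes in either direction and 3.09% lower. The 14 differences were 7 positive and 7 negative, with a median of 0.049. The called gene was Ncbp1, the large subunit of the nuclear cap-binding complex, which fell by 0.27 ± 0.067 in BdP tumours (limma adjusted p = 0.03). Among 33 genes of S phase and DNA replication, those called lower in the same average included Ccna2, also called under PBS, and Mcm7, and 0 were called higher. Ccna2, the cyclin A2 gene on chromosome 3, was at 23.7 to 27.3 FPKM in WT PBS and 16.1 to 19.6 in BdP PBS (-0.48 ± 0.08, limma adjusted p = 0.0132). Under cisplatin 0 of these 33 genes were called between genotypes in limma, 5 had an unadjusted p below 0.05, against 13.8% of all genes, and the median was 0.018. Of 20 mitotic genes 0 were called in any of the 7 comparisons in limma, where 0% to 5.86% of all genes were called. Their unadjusted p was below 0.05 most often between genotypes under PBS, for 11 of 20, against 19.3% of all genes, with 18 of 20 differences negative (median -0.27). Cisplatin against PBS called 0 genes of these 5 lists in either genotype, against 1 of all 12319 genes in WT and 0 in BdP tumours.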

How the data were processed

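The authors deposited 1 table of FPKM per gene for 16 tumour libraries. Per the submitters' processing notes the tools were featureCounts 1.5.0-p3, HISAT2 2.0.5 and CASAVA, on GRCm38 (mm10). Reads were recovered from FPKM and gene length, and came out whole for 100% of genes in each library (tolerance 0.1 read). Since those FPKM carry a size factor between libraries, none was added. Genes at 1 FPKM or more in at least 4 libraries were kept. With limma 3.58.1 under R 4.3.3, 4 group means were fitted to log2(FPKM + 1), using a mean-variance trend and Benjamini-Hochberg adjustment over 12319 genes. A gene was called at an adjusted p below 0.05. The fit was tested on simulated data. Errors of FPKM are SD, and p-values measure the spread between libraries, which the labels number but do not tie to animals.

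The members and lists were chosen with earlier results of these data known. Genes given by library were the 8 highest by mean, each called member, and the 2 with the smallest p in each comparison of 2 groups. From each list, genes with the smallest p were named, save 1 that is not reported here. Alternatives were a pseudocount of 0.1, no filter, rescaling to a constant library sum without mitochondrial and haemoglobin genes, limma-voom on recovered reads, a replicate block, leaving out each library, leaving out the 3 libraries richest in mitochondrial reads, and fitting only the groups compared. Stem-loops came from GENCODE M21 and promoters from RefSeq.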

Additional observations from a re-analysis of the deposited data

Results flagged for a closer look

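Among 40 sets of 4 libraries (9 named genes and the summed level, in 4 groups), 2 held a library whose gap to the nearest other exceeded Dixon's limit for 4 values, and chance alone flags about 5% of such sets. Hist1h4h was at 3.51 FPKM in WT PBS 2, with the other 3 WT PBS libraries between 0.725 and 1.09 FPKM. The summed level of the 70 clustered histone genes was 88.6 FPKM in BdP PBS 3, with the other 3 BdP PBS libraries between 99.9 and 100.2 FPKM. No cause was tested for either.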

How the results depend on the processing

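Of 174 values under alternatives other than leaving out 1 library, 157 were counted as unchanged. A single gene's difference counted so if it kept its direction and its side of the threshold. A median counted so if it moved by less than 0.329, the SD between libraries of 1 group. That limit exceeds several of the medians themselves, so a median that changed sign could still count. Counts of called genes had to be equal or close. A reversal was scored only for single genes, and there were 0. For BdP against WT tumours under cisplatin, the number of histone genes called went from 1 to 0 without a filter on low values, with the replicate block, after rescaling, and without the 3 mitochondria-rich libraries. It went to 2 when only these groups were fitted, and ran from 0 to 2 when each library was left out in turn. For the genotype averaged over treatments it went from 1 to 0 after rescaling. The median log2 difference under PBS, -0.49, was -0.014 without a filter, -0.16 after rescaling, -0.097 without the 3 libraries, and -0.58 to -0.097 leaving out 1 library. The median interaction, 0.37, was 0.020 without a filter, -0.023 after rescaling and 0.12 to 0.52 leaving out 1 library, lowest without WT PBS 1. The median for cisplatin averaged over genotypes, -0.038, was -0.10 to 0.067 leaving out 1 library, and that for the genotype under cisplatin, 0.065, was -0.097 to 0.20. Rescaling tested 37 clustered histone genes and no filter 59. The cause was not tested. Fitting only the groups compared gives no value for the interaction or the averaged comparisons. No pairing by replicate number was visible: over 24 same-numbered pairs r ran from -0.61 to 0.42 (9 over 0.1). Only 3 of 16 libraries correlated best with their own number. The labels do not say whether the numbers pair libraries, and such correlations cannot settle it. With the replicate block, Hist2h2be under cisplatin had an adjusted p of 0.0537 at the same difference of -0.87, and its average over treatments 0.0118. Depth limits the low genes: 3 reads on a gene of 500 bases are 3.07 FPKM in WT PBS 1 and 0.188 to 0.511 FPKM elsewhere, counting error only.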
